A study of Mus musculus with 80 samples.

Results

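The genes described here are 7 genes of cholesterol synthesis and its control: Hmgcs1 and Idi1 of the mevalonate arm, Fdft1, Sqle, Lss and Msmo1 of the sterol arm, and Insig1, a regulator of the pathway. They are grouped here by their known roles. They are 7 of the 27179 genes in the count table, and all 7 are among the 13016 genes tested, which are those with 5 CPM or more (counts scaled to the library total) in 8 or more libraries. The smallest count of any of them in any library was 74, for Idi1.

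Cells make cholesterol from acetyl-CoA in a long chain of steps. The mevalonate arm builds isoprenoid units, and the sterol arm joins them into squalene and folds and trims that into cholesterol. When sterol in the endoplasmic reticulum runs low, the escort protein SCAP carries the precursor of the transcription factor SREBP2 to the Golgi, where it is cleaved and released to switch on most genes of both arms. INSIG proteins hold SCAP back when sterol is plentiful. The brain makes its own cholesterol, since lipoproteins of the blood hardly cross into it, and much of it goes into myelin.

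The data are RNA-seq counts of polyA RNA from 5 brain regions of C57BL/6 female mice (C57BL/6J in the study's methods), either Virgin or Primiparous. Per the labels, a primiparous female was mated at 8 weeks of age by housing with 1 male for 2 weeks, and its tissue was taken 3 weeks after its pups were weaned; the study's methods give a longer interval. The virgins were of the same age, were kept in groups and never lived with a male, so the experience of a male, pregnancy and rearing cannot be told apart. From 8 virgin and 8 primiparous animals, the count table holds 16 hypothalamus and 16 neocortex libraries (8 and 8) and 15 libraries each of cerebellum, hippocampus and amygdala (7 virgin and 8 primiparous), 77 in all. The same animals gave all regions. Total counts per library ranged from 7959192 to 37871854.

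Each region was checked against marker genes of that region. The summed level of 8 hypothalamic markers averaged 1175 CPM in the hypothalamus, and at most 40.3 CPM, in the amygdala, elsewhere. Cerebellar markers averaged 6949 CPM in the cerebellum. The hippocampal and neocortical lists were likewise highest in their own regions, at 413 and 629 CPM. The sum of the 6 genes listed for the amygdala did not mark it, at 138 CPM there, 438 CPM in the hypothalamus and 720 CPM in the cerebellum. A single gene carried each higher sum: Dlk1, at 352 CPM in the hypothalamus, and Zic1, at 690.4 CPM in the cerebellum.

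A few libraries stood apart in markers of neighbouring tissue. The hippocampus library of primiparous animal 413 held 700 CPM of cerebellar markers, where the other 14 hippocampus libraries held at most 184 CPM. Choroid plexus markers reached 451 CPM in the hippocampus of primiparous animal 425, 442 CPM in that of virgin 4487 and 362 CPM in the cerebellum of primiparous animal 421. Between virgin and primiparous animals, none of the 7 genes was called within hippocampus or cerebellum. None became so when any library of those 2 regions was left out. Comparisons between regions were not refitted without these libraries.

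The 7 genes lie on 6 chromosomes of mouse genome build mm10. Hmgcs1 (Entrez ID 208715) is at chr13:119690379-119708260 and Idi1 (319554) at chr13:8885501-8892451, next to its paralogue Idi2. Fdft1 (14137) is at chr14:63145150-63179578, Sqle (20775) at chr15:59315077-59331192, Lss (16987) at chr10:76531588-76557138, Msmo1 (66234) at chr8:64718139-64733792 and Insig1 (231070) at chr5:28071363-28078662. Fdft1 overlaps the protein-coding gene Ctsb on the opposite strand, and Hmgcs1, Idi1 and Lss each overlap a noncoding or unsettled transcript on the opposite strand. The labels do not say whether reads were counted by strand, so counts in those overlaps could come from either gene.

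Promoter sequences are shown for Hmgcs1, Idi1 and Msmo1, the members whose counts differed between virgin and primiparous hypothalamus. The table of RefSeq promoters used (build GRCm38.p6), from 250 bases before to 50 bases after the start, had an entry for 5 of the 7 genes; those of Fdft1 and Sqle were not analysed here. Capitals mark 3 sets of letters searched on both strands: TCACNCCAC, the core of the sterol element that SREBP2 binds; CCAAT, or ATTGG on the other strand, the box of the factor NF-Y that works beside it; and TCACNTGA, an E-box form of the SREBP site. The windows are chr13:119690101-119690400 (plus strand), chr13:8885356-8885655 (plus strand) and chr8:64733529-64733828 (minus strand), each written 5′ to 3′.
Hmgcs1: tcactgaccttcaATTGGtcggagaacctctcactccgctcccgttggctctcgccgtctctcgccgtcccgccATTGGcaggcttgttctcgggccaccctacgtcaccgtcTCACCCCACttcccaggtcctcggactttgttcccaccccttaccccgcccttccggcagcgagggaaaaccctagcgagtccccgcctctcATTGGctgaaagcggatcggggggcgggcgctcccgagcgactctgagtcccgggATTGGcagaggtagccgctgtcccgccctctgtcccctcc
Idi1: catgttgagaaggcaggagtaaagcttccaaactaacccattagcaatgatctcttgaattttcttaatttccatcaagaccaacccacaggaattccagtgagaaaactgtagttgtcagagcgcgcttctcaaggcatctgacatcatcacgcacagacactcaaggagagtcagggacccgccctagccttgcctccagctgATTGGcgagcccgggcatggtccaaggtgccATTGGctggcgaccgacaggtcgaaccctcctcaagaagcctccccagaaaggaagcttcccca
Msmo1: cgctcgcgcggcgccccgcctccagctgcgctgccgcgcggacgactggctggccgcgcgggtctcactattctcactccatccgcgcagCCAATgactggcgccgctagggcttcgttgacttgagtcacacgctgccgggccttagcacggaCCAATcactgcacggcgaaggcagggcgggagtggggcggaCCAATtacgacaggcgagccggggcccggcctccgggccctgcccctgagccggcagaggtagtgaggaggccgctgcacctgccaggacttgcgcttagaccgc
The sterol core is present once among the 5 promoters, in Hmgcs1, as TCACCCCAC at base 114 counted from the 5′ end of the window. It is found in 1.24% of the 32851 promoters in the table. All 5 promoters hold the NF-Y box, which 37.4% of all promoters do: Hmgcs1 has 4, Msmo1 has 3, Idi1 has 2, and Lss and Insig1 have 1 each. TCACNTGA, found in 4.18% of promoters, is in 0 of the 5. A match is a description of letters and no match says only that they are not in this window.

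Across regions, most enzymes of synthesis had high levels in hypothalamus and low levels in cerebellum. Other genes of the pathway were mixed. In the fit described next, cerebellum was highest for Insig2, Mbtps1 and Stard4, among others, and lowest for Srebf2, Apoe and Cyp46a1, among others. Regional levels were compared with edgeR in 1 fit of all 77 libraries, averaging both states; p-values were adjusted over all 13016 genes. Most genes of any kind differ between brain regions, so the share of all genes that did is given beside each count. All 7 members differed between hypothalamus and cerebellum, where 81.1% of genes did, and the hypothalamus was higher for each. Against hippocampus (73% of genes) and neocortex (77.7%) all 7 were again higher in hypothalamus. Against amygdala (71%) 6 differed, with 5 higher in hypothalamus and Hmgcs1 lower. In bulk tissue, fewer cells of a type and less RNA per cell cannot be told apart. The summed level of 12 oligodendrocyte genes averaged 6148 CPM in hypothalamus, 6312 in cerebellum, 6052 in hippocampus, 5404 in neocortex and 2852 in amygdala. That of 12 neuronal genes averaged 5502, 7117, 7533, 9237 and 7028 CPM in the same order. The part of these cell types in the regional levels was not tested.

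**Figure D1:**
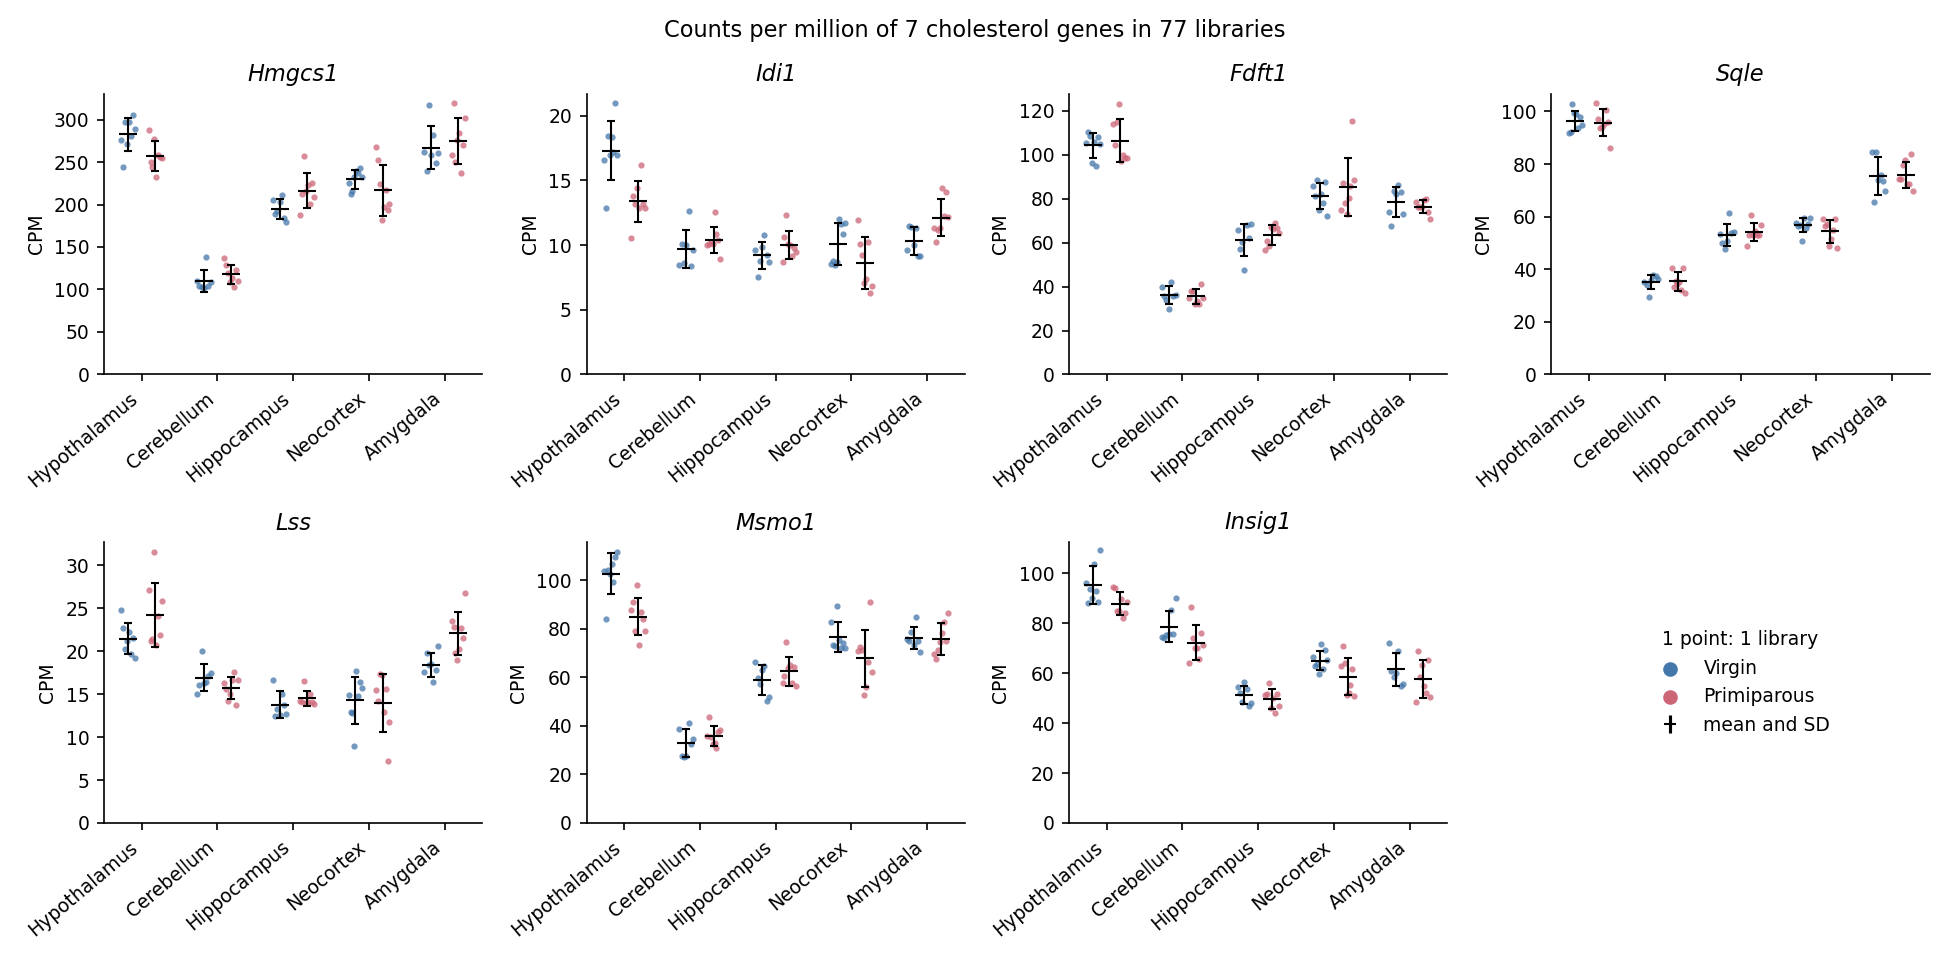
Level of each of the 7 genes in CPM (y axis, from 0) in the 77 libraries, by region and state; each point is 1 library and the bars give mean and SD. Hmgcs1, Fdft1, Sqle and Msmo1 are lowest in cerebellum, while Insig1 is lowest in hippocampus.

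In the mevalonate arm, Hmgcs1 makes the precursor of mevalonate and Idi1 turns an isoprenoid unit into its reactive form. Hmgcs1 averaged 271 ± 25.8 CPM in amygdala and 270.1 ± 22.1 in hypothalamus, followed by 223 ± 22.9 in neocortex, 206 ± 19.9 in hippocampus and 114 ± 12.2 in cerebellum (SD; n = 16 for hypothalamus and neocortex, 15 for the others, here and below). Cerebellum was the lowest region in all 14 animals with libraries of every region, 0.99 ± 0.050 below hippocampus on the log2 scale (SE; adjusted p = 5.5e-31). The neighbours neocortex and hippocampus did not pass the test (log2 difference 0.09, adjusted p = 0.0845). The order of amygdala and hypothalamus depends on the scale. By CPM, amygdala was above hypothalamus in 6 of 14 animals, and after the composition scaling of the fit (TMM) in 13, with a log2 difference of 0.15 (adjusted p = 0.0059).

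Idi1 was highest in hypothalamus, followed by amygdala. It averaged 15.3 ± 2.77 CPM in hypothalamus, 11.3 ± 1.56 in amygdala, 10.1 ± 1.28 in cerebellum, 9.64 ± 1.10 in hippocampus and 9.37 ± 1.93 in neocortex. By CPM hypothalamus was the highest region in 12 of 14 animals, and with TMM scaling it was above amygdala in 8. In the fit it stood 0.30 ± 0.077 above amygdala on the log2 scale (adjusted p = 0.000415). Amygdala in turn was above hippocampus by 0.22 (adjusted p = 0.0138), neocortex by 0.28 (adjusted p = 0.00116) and cerebellum by 0.30 (adjusted p = 0.000469). The other 3 regions did not differ from each other by the test, and their order differs between CPM and the fit, where cerebellum comes last.

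In the sterol arm, 3 of the 4 genes had the same poles. Fdft1, squalene synthase, averaged 105 ± 7.74 CPM in hypothalamus, 83.3 ± 10.2 in neocortex, 77.4 ± 5.11 in amygdala, 62.5 ± 5.84 in hippocampus and 35.9 ± 3.53 in cerebellum. Hypothalamus exceeded cerebellum by 1.55 ± 0.051 on the log2 scale (adjusted p = 5.16e-43), in 14 of 14 animals. Neocortex and amygdala did not pass the test (0.08, adjusted p = 0.151). Sqle, squalene epoxidase, whose step is thought to limit the rate of this arm, averaged 96.1 ± 4.39 CPM in hypothalamus, 75.7 ± 5.82 in amygdala, 55.6 ± 3.69 in neocortex, 53.6 ± 3.78 in hippocampus and 35.3 ± 3.08 in cerebellum. Its order was the steadiest of the 7: hypothalamus was highest and cerebellum lowest in all 14 animals, and the only neighbours that did not pass the test were neocortex and hippocampus (0.02, adjusted p = 0.621).

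Msmo1, which removes methyl groups from the sterol ring, averaged 93.9 ± 12.05 CPM in hypothalamus, 75.9 ± 5.50 in amygdala, 72.2 ± 10.2 in neocortex, 60.9 ± 6.11 in hippocampus and 34.4 ± 4.95 in cerebellum. By CPM, cerebellum was lowest in 14 of 14 animals and hypothalamus highest in 12. The difference between amygdala and neocortex did not pass (0.10, adjusted p = 0.12). Lss, which closes squalene epoxide into the ring of lanosterol, had a different order: 22.8 ± 3.20 CPM in hypothalamus, 20.4 ± 2.74 in amygdala, 16.3 ± 1.54 in cerebellum, 14.2 ± 1.26 in hippocampus and 14.1 ± 2.94 in neocortex. Its regions form an upper pair and a lower group. Neither hypothalamus and amygdala (0.04, adjusted p = 0.659) nor any of cerebellum, hippocampus and neocortex differed by the test.

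Insig1, the sterol-dependent brake on SCAP and itself an SREBP target, was not lowest in cerebellum. By CPM the enzymes Idi1 and Lss were not either. Insig1 was lowest in hippocampus. Its level averaged 91.6 ± 7.19 CPM in hypothalamus, 75.2 ± 7.25 in cerebellum, 61.9 ± 6.60 in neocortex, 59.5 ± 7.10 in amygdala and 50.5 ± 3.73 in hippocampus. Cerebellum, by CPM the poorest region for 4 of the 6 enzymes, was second for Insig1, 0.44 ± 0.048 above hippocampus on the log2 scale (adjusted p = 2.77e-13), and lowest in 0 of 14 animals. Only neocortex and amygdala were neighbours that did not pass (0.03, adjusted p = 0.624).

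The remaining pairs of regions follow from these orders. In cerebellum against hippocampus (78.7% of all genes differed) and against neocortex (79.9%), 5 members differed, all but Idi1 and Lss, with Insig1 higher in cerebellum and the other 4 lower. With an offset for gene length and GC content Lss passed too against hippocampus (0.18, adjusted p = 0.00312; 0.00312 to 0.506 over 4 alternatives), higher in cerebellum. Against amygdala (80.2%) all 7 differed, and Insig1 alone was higher in cerebellum. Hippocampus was below amygdala for all 7 (58.7% of genes). Between neocortex and amygdala (62.5%) 4 differed, Hmgcs1, Idi1, Sqle and Lss, each higher in amygdala. Hippocampus against neocortex (67%) gave 3, Fdft1, Msmo1 and Insig1, each lower in hippocampus; with that offset it gave 6, and the offset ended the calls of Hmgcs1 and Msmo1 in hypothalamus against neocortex and of Idi1 and Msmo1 against amygdala.

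Levels can be compared between genes only per length. In CPM per kilobase of exon, regional means of Hmgcs1 ran from 24.9 to 59.0, of Insig1 from 16.3 to 29.6, of Fdft1 from 8.48 to 24.9, of Sqle from 6.37 to 17.3 and of Msmo1 from 5.60 to 15.3. Idi1, from 2.67 to 4.38, and Lss, from 1.31 to 2.12, were the scarcest. Length here is that of all annotated exons of a gene merged, 10.8 kb for Lss and 3.5 kb for Idi1. By CPM alone Lss was above Idi1 in every region, so their order depends on the length used. Counting every enzyme of both arms, 21 genes with the 6 enzymes above among them, hypothalamus was the highest region for 13 and cerebellum the lowest for 13 in the order of the fit. Between those regions 16 were higher in hypothalamus and 3 lower, with a median log2 difference of 0.68, beside -0.01 over all genes. In either direction 81.1% of all genes differed there. The share of all genes with such an order, or called in each direction, was not counted.

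The comparison the study was made for is that of primiparous with virgin animals. In the hypothalamus, primiparous animals had lower counts of 3 of the 7 genes: Idi1, Msmo1 and Hmgcs1, by 10.2% to 24.0%. Over all genes tested 11.8% were lower in primiparous hypothalamus and 10.8% higher, and 0 of the 7 members were higher. The median log2 difference of the 7 was -0.14, beside 0.01 over all genes. Differences are log2 of primiparous over virgin from edgeR, fitted in each region alone.

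Idi1 in virgin hypothalamus ranged from 12.9 to 20.99 CPM with a median of 17.1, and in primiparous hypothalamus from 10.5 to 16.2 with a median of 13.2. Every primiparous animal was below the virgin mean and 3 were below the lowest virgin, though the groups overlap. The log2 difference was -0.40 ± 0.099 (SE), a fold of 0.760 (adjusted p = 0.00793).

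Msmo1 in virgin hypothalamus ranged from 84.2 to 111.5 CPM with a median of 104.1, and in primiparous from 73.5 to 98.1 with a median of 85.5. Again all 8 primiparous animals lay below the virgin mean, and the overlap came from a single virgin, animal 409, at 84.2 CPM. The log2 difference was -0.29 ± 0.062, a fold of 0.815 (adjusted p = 0.00323). Hmgcs1 ranged from 244.6 to 305.5 CPM with a median of 284.6 in virgins, and from 232.8 to 288.0 with a median of 255.3 in primiparous animals. The groups overlap over much of their range, with 7 of 8 primiparous animals below the virgin mean. The log2 difference was -0.16 ± 0.050, a fold of 0.898 (adjusted p = 0.0293). This call depends on single libraries: without primiparous 414 or 421, or virgin 4486, 4488, 4490 or 4491, the adjusted p lay between 0.055 and 0.0659, with differences from -0.15 to -0.14.

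Insig1 ranged from 88.3 to 109.3 CPM (median 93.3) in virgin and from 82.0 to 94.6 CPM (median 86.8) in primiparous hypothalamus, with all 8 primiparous animals below the virgin mean. It did not pass the test (-0.14 ± 0.054, adjusted p = 0.0646), and passed without virgin 409 (-0.16, adjusted p = 0.0297), with weights for library quality (-0.16, adjusted p = 0.0222) and with DESeq2 (-0.14, adjusted p = 0.0463; 0.0222 to 0.502 over 10 alternatives). The remaining sterol genes showed no like shift. Fdft1 differed by 0.0073 ± 0.055 (adjusted p = 0.939), Sqle by -0.03 ± 0.047 (adjusted p = 0.624) and Lss by 0.15 ± 0.088 (adjusted p = 0.206), and the groups overlap for each.

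**Figure D2:**
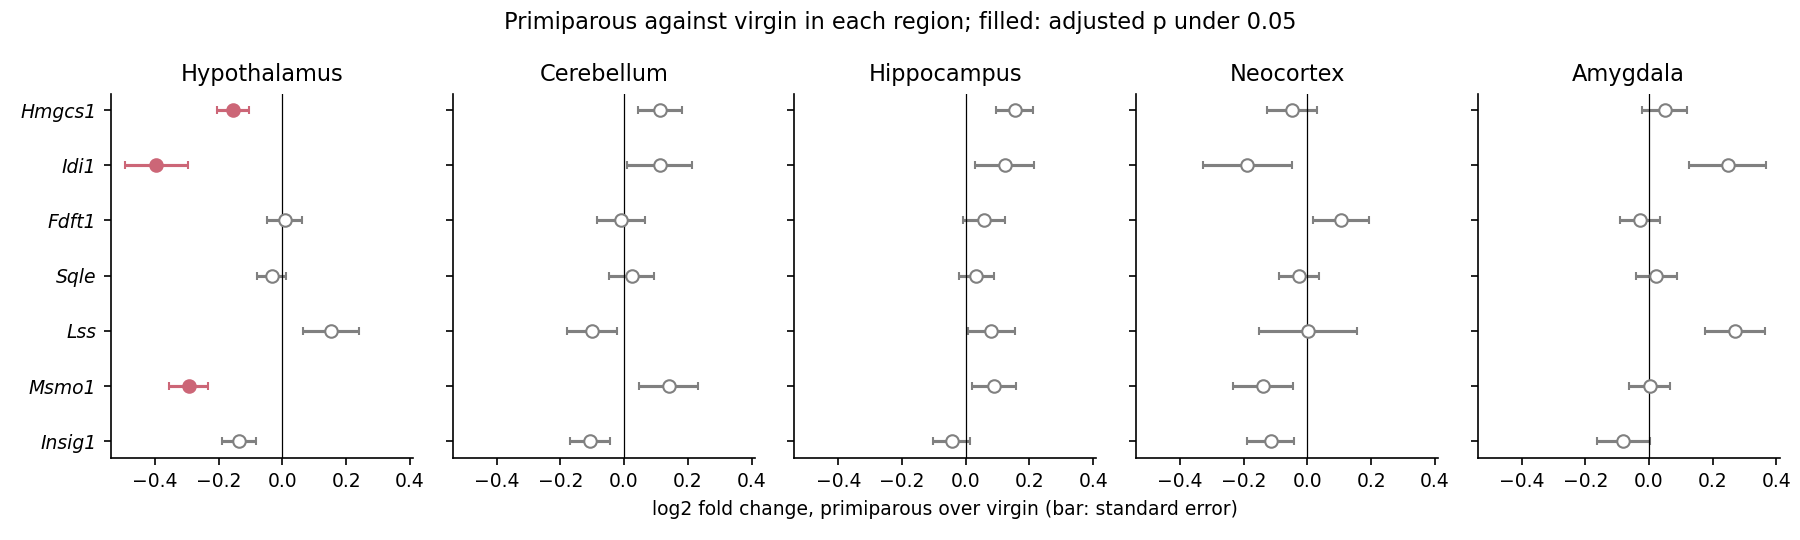
Log2 difference, primiparous over virgin, of the 7 genes in each of the 5 regions (x axis), with the standard error as bar; filled points have an adjusted p under 0.05 in edgeR. The 3 filled points are in hypothalamus, at -0.40, -0.29 and -0.16; an offset for GC content or the digits of the animal number as covariate leaves 0.

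Beside these values stands an imbalance in how the animals were numbered. Animal numbers have 3 or 4 digits, and the labels do not say what that marks. Of the virgins 2 have 3 digits and 6 have 4, and of the primiparous animals 7 have 3 and 1 has 4. Among animals with 3 digits, the mean of Idi1 was 14.7 CPM in the 2 virgins and 13.5 in the 7 primiparous animals, and that of Msmo1 94.1 and 85.8. Hmgcs1 averaged 260.2 and 258.0 CPM, almost level. Among animals with 4 digits the single primiparous animal had 12.9 CPM of Idi1 beside 18.1 in the 6 virgins, 79.3 of Msmo1 beside 106 and 255.0 of Hmgcs1 beside 290.1.

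With the number of digits as a covariate, the log2 differences were -0.27 for Idi1, -0.24 for Msmo1 and -0.09 for Hmgcs1. In that fit 0 members passed and 3 of all 13016 genes did, where 2939 passed without it. Reproductive state and number series cannot be told apart at this balance.

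**Figure D3:**
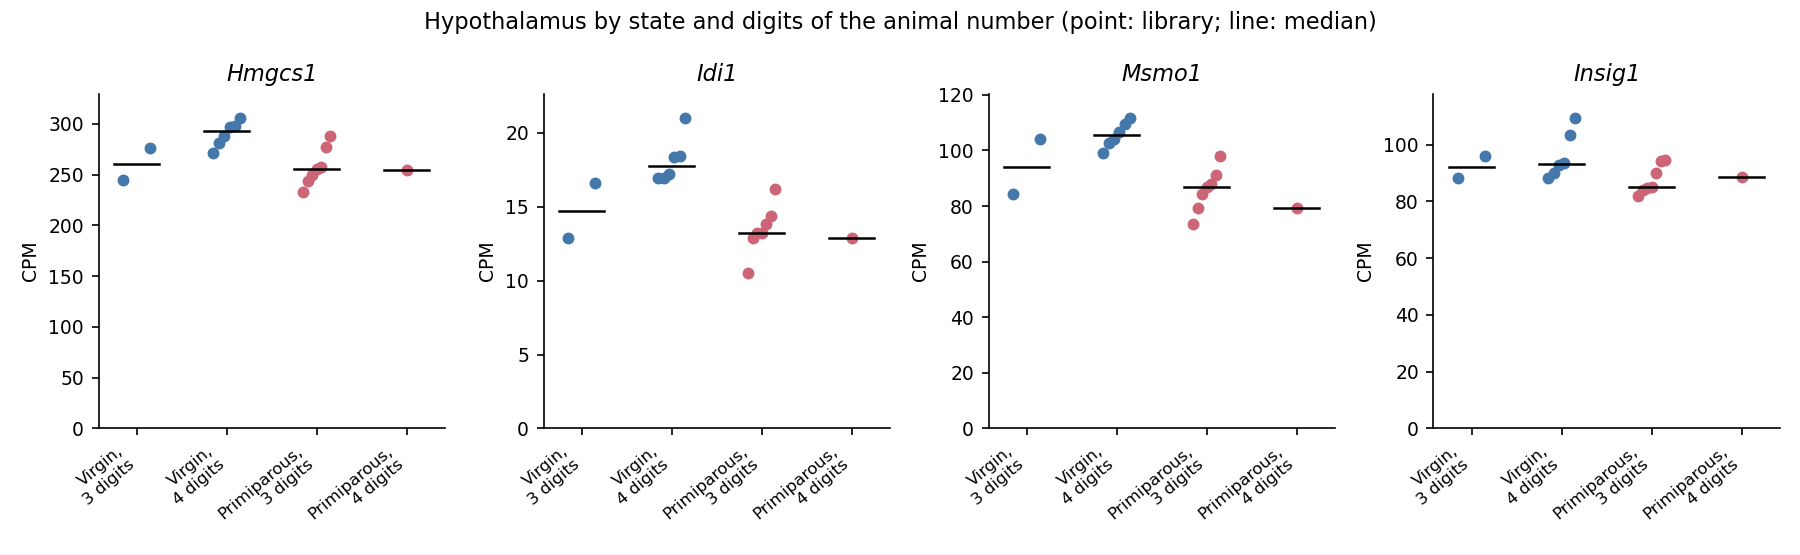
CPM (y axis, from 0) of Hmgcs1, Idi1, Msmo1 and Insig1 in the 16 hypothalamus libraries, by state and by the number of digits in the animal number; points are libraries and lines medians. The 2 virgins with 3 digits include the lowest virgin value of each gene shown.

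The direction of genes in this comparison also lined up with base composition. Genes were split into 10 bins of equal number by the GC content of their longest transcript. The median log2 difference in hypothalamus went from -0.26 in the bin poorest in GC to 0.21 in the richest, and the share of genes called lower from 49.1% to 0.0791%. Idi1 (41.9% GC) and Hmgcs1 (43.1%) are in the second-poorest bin, where the median was -0.17 and 33.7% of genes were called lower. Msmo1 (44.7%) is in the next bin, with a median of -0.11 and 20.6% called lower. Hmgcs1 lies in the middle of its bin, with 54.7% of those genes lower still. Idi1 and Msmo1 lie near the low end of theirs, with 3.17% and 5.15% of genes lower.

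The members that did not pass have more GC, from 48.2% in Insig1 to 51.8% in Fdft1. With an offset fitted to the dependence of counts on length and GC in every library, Idi1 differed by -0.19, Msmo1 by -0.16 and Hmgcs1 by 0.02, and 0 members passed, with 351 genes passing over all. So the 3 calls in hypothalamus hold under neither the covariate nor this offset.

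**Figure D4:**
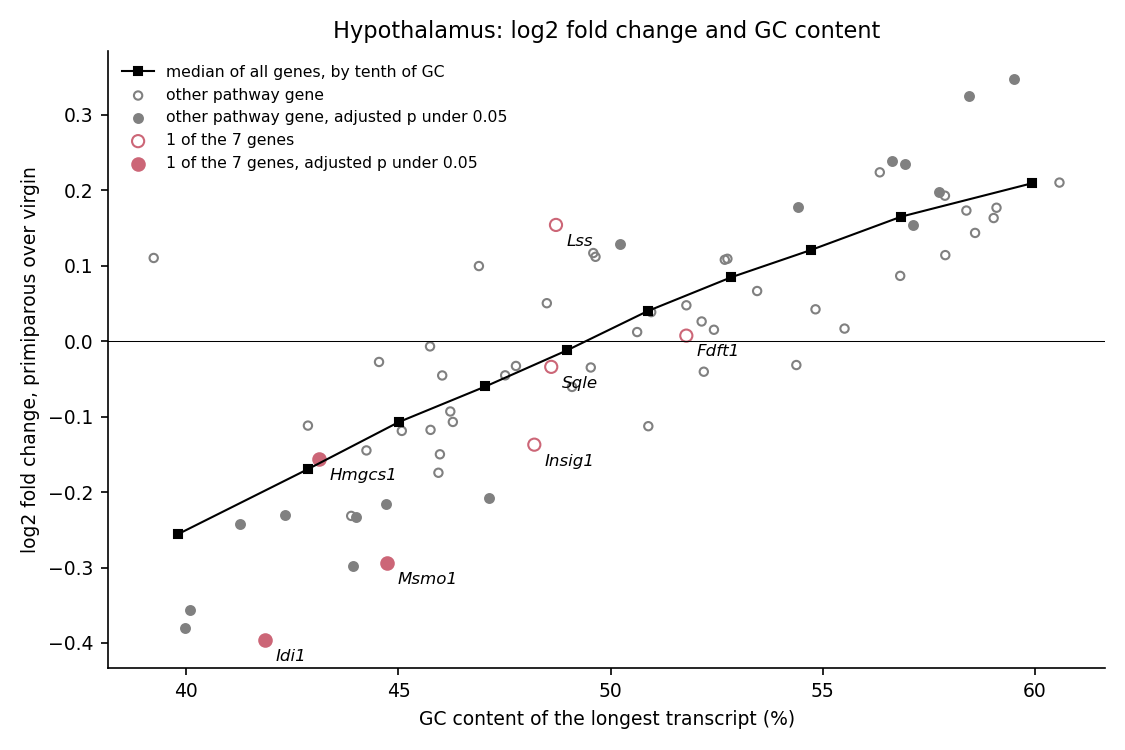
Log2 difference, primiparous over virgin, in hypothalamus (y axis) against GC content of the longest transcript in percent (x axis) for the 7 genes and 59 other genes of the pathway; squares joined by a line are medians of all genes in 10 bins of GC. Hmgcs1 lies on the line of medians, and Idi1 and Msmo1 lie below it.

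Cell type markers in the same hypothalamus libraries were read beside these genes. Their calls are from the same fit, in which 11.8% of all genes were lower and 10.8% higher in primiparous animals. The calls of markers were not checked with the digits covariate or the GC offset. Of 12 oligodendrocyte genes, which mark the cells that build myelin, 5 were lower in primiparous animals, Mal, Ermn, Ugt8a and Aspa among them, and 1 higher (Cnp). Their summed level had a median of 6252 CPM (5701 to 6608) in virgins and 6071 CPM (5409 to 6638) in primiparous animals, with Mbp the most abundant at 3004 CPM. Of 12 neuronal genes 4 were lower (Snap25, Syt1, Slc17a6 and Gad2) and 1 higher (Rbfox3), with summed medians of 5508 and 5386 CPM. Of 10 astrocyte genes, 2 were lower (Slc1a2 and Slc1a3), with summed medians of 5072 and 4780 CPM.

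In the smaller lists a few genes were called in that fit, with the same limits. Oligodendrocyte precursor markers had 2 of 7 tested higher (Cspg4 and Olig2), endothelial and mural markers 2 of 10 higher (Cldn5 and Pdgfrb), and blood markers 2 of 3 tested higher (Hba-a2 and Alas2). Blood markers summed to a median of 36.002 CPM in virgins and 43.6 CPM in primiparous animals. Prlr, in the choroid plexus list, was lower. The median log2 difference was 0.04 over 10 microglial genes and 0.10 over 8 immediate early genes. The part of these cell types in the result was not tested.

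Outside the hypothalamus no member passed between primiparous and virgin animals. In cerebellum 0 of 7 passed with edgeR, where 0.707% of all genes did (92, and 6 to 903 without any 1 library); 0 had an unadjusted p under 0.05, and limma-voom and DESeq2 also gave 0. Of the oligodendrocyte markers Mbp and Ugt8a were higher in primiparous cerebellum, as were the microglial genes C1qa and C1qb and the astrocyte gene Aqp4, calls of the same fit; their part in the result was not tested. In hippocampus 0% of genes passed with edgeR and 0 of 7 members, with 1 member at an unadjusted p under 0.05; limma-voom and DESeq2 also called 0 members, and 0 and 13 genes in all. The member was Hmgcs1, at 179.0 to 211.7 CPM (median 192.4) in virgins and 187.6 to 257.4 CPM (median 214.0) in primiparous animals. Its direction was opposite to that in hypothalamus, 0.15 ± 0.058 (adjusted p = 0.615), with 7 of 8 primiparous animals above the virgin mean.

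Neocortex gave 0% of genes and 0 of 7 members, 0 at an unadjusted p under 0.05 with edgeR, and 0 by limma-voom and DESeq2. Amygdala gave 0% of genes and 0 of 7 members with edgeR, with 1 at an unadjusted p under 0.05; limma-voom and DESeq2 also called 0 members, and 0 and 106 genes in all. The member there was Lss, at 16.4 to 20.6 CPM (median 18.4) in virgins and 19.0 to 26.8 CPM (median 22.2) in primiparous animals. All 8 primiparous animals were above the virgin mean and 5 above the highest virgin, yet it did not pass over all genes (0.27 ± 0.093, adjusted p = 0.259). The medians of the 7 log2 differences were 0.02 in cerebellum, 0.08 in hippocampus, -0.05 in neocortex and 0.02 in amygdala.

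Whether the difference in hypothalamus departs from that in another region was tested as an interaction. These comparisons share the hypothalamus libraries, so they are given side by side and not as independent results. Against cerebellum 3 members departed, where 15.5% of all genes did: Idi1 by -0.52 ± 0.14 (adjusted p = 0.0145), Msmo1 by -0.44 ± 0.11 (adjusted p = 0.00934) and Hmgcs1 by -0.28 ± 0.088 (adjusted p = 0.0289). Against hippocampus the count was also 3, beside 17.2% of genes: Idi1 by -0.53 ± 0.13 (adjusted p = 0.00804), Msmo1 by -0.40 ± 0.097 (adjusted p = 0.00676) and Hmgcs1 by -0.32 ± 0.079 (adjusted p = 0.00676). In both regions the 3 genes had positive differences that did not pass on their own.

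Against amygdala (18.2% of genes) Idi1 departed by -0.64 ± 0.15 (adjusted p = 0.00367) and Msmo1 by -0.29 ± 0.088 (adjusted p = 0.0191). With the animal as a block, Msmo1 was at -0.29 (adjusted p = 0.0503; 0.0235 to 0.605 over 3 alternatives), which leaves 1 member. Against neocortex 0% of genes and 0 of 7 members departed with edgeR, 0 of 7 also at an unadjusted p under 0.05 and by limma-voom. There the differences of Idi1, Msmo1 and Hmgcs1 between hypothalamus and neocortex were -0.20 ± 0.17, -0.15 ± 0.11 and -0.10 ± 0.093. The block took the number of genes departing from hippocampus from 2243 to 1449. With the block and the GC offset together, Msmo1 against cerebellum was the only departure among the 7 members that passed (-0.31, adjusted p = 0.0395, and 0.00822 to 0.0395 over 3 alternatives).

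Trends with GC content differed between regions as well. In neocortex the medians over the GC bins ran from -0.18 to 0.17, the same way as in hypothalamus, and in amygdala and hippocampus they ran the other way. In cerebellum they lay between -0.01 and 0.03, with the poorest and the richest bin both at 0.03.

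Other genes of cholesterol metabolism, 59 in 8 lists together with the 7, give the setting of these changes in hypothalamus. Of the 59, 8 were lower and 8 higher in primiparous animals, close to the shares of all genes, and their median log2 difference was 0.02. The mevalonate arm (8 genes) was split: Pmvk, the kinase of phosphomevalonate, was higher by 0.23 ± 0.067 (adjusted p = 0.0158), against the direction of Idi1 and Hmgcs1. In the sterol arm (13 genes) Msmo1 was the only gene called lower.

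The machinery that senses sterol (7 genes) was split too. The proteases that release SREBP moved apart: Mbtps1 was higher by 0.13 ± 0.045 (adjusted p = 0.0404) and Mbtps2 lower by 0.38 ± 0.086 (log2 difference -0.38, adjusted p = 0.00485). Srebf2, the gene of SREBP2 itself, differed by 0.11 ± 0.056 (adjusted p = 0.142) and Insig2, the paralogue of Insig1, by -0.15 ± 0.056 (adjusted p = 0.0553). Srebf2 passed without primiparous 418 and with weights for library quality (adjusted p from 0.0121 to 0.853 over 10 alternatives). Insig2 passed without primiparous 4493 or virgin 409, with DESeq2 and with those weights (0.0370 to 0.685 over 10 alternatives). Of 5 other SREBP2 targets, Stard4, a carrier of sterol between membranes, was lower, at 28.1 to 36.4 CPM (median 30.8) in virgins and 23.2 to 27.9 CPM (median 26.5) in primiparous animals. The groups do not overlap, and the difference was -0.30 ± 0.067 (adjusted p = 0.00445).

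Lists further from synthesis held calls too. All 3 genes called in the list of sterol export and LXR (9 genes) were higher. Apoe, the main apolipoprotein of the brain, was higher by 0.35 ± 0.081 (adjusted p = 0.0058). Cyp46a1, the neuronal enzyme that makes the oxysterol by which the brain sheds cholesterol, was higher by 0.32 ± 0.062 (adjusted p = 0.00209). Abcg4, a sterol transporter, was higher by 0.20 ± 0.062 (adjusted p = 0.0261). Among 10 fatty acid targets of SREBP, the desaturase Scd1 (-0.21, adjusted p = 0.00873) and the elongase Elovl6 (-0.23, adjusted p = 0.0115) were lower and the desaturase Fads2 higher (0.18, adjusted p = 0.0328). Of 8 genes of sterol-driven protein degradation, the ubiquitin ligases March6 (-0.22, adjusted p = 0.00322) and Rnf139 (-0.24, adjusted p = 0.0195) were lower and Syvn1 higher (0.24, adjusted p = 0.00963). In the isoprenoid branch (6 genes) Ggps1, which makes the lipid anchor of small GTPases, and Nus1, which serves dolichol synthesis, were lower (-0.36, adjusted p = 0.00597, and -0.23, adjusted p = 0.0152).

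**Figure D5:**
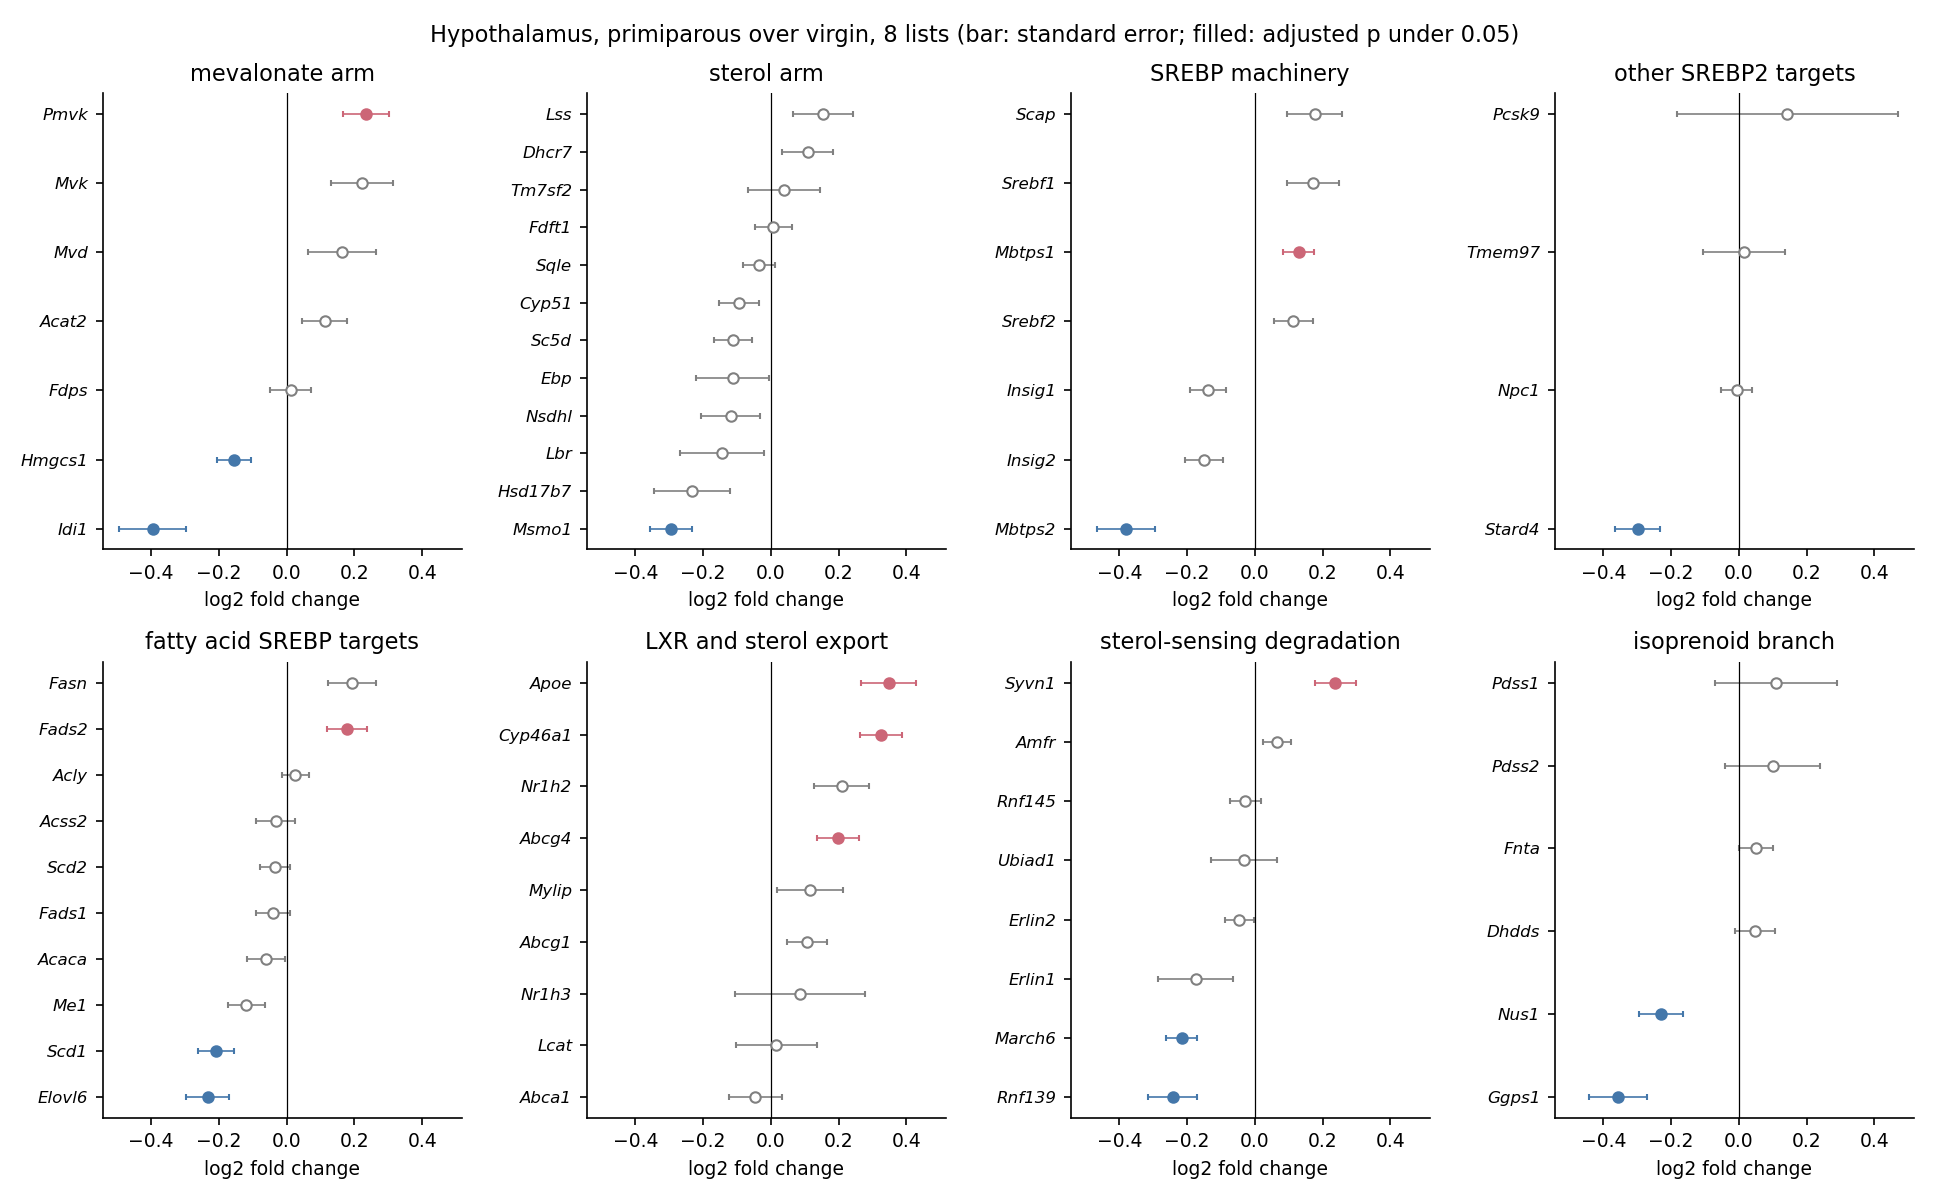
Log2 difference, primiparous over virgin, in hypothalamus (x axis) for genes of 8 lists, with the standard error as bar; filled points have an adjusted p under 0.05 in edgeR. The filled points of the mevalonate, SREBP, fatty acid and degradation lists lie on both sides of 0; with the GC offset or the digits covariate none of the filled points passes.

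Directions again sorted by GC content. The 11 pathway genes called lower, members included, have 39.96% to 47.1% GC, and the 8 called higher have 50.2% to 59.5%. With the offset for length and GC, and with the digits of the animal number as covariate, each of the other called pathway genes named here lost its call. Dropping a single library ended the call of Mbtps1 in 10 of 16 cases and of Fads2 and Abcg4 in 5 each. With 1 fit of all groups Stard4, Scd1 and Fads2 did not pass, and without the filter on counts Fads2 and Mbtps1 did not.

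Within groups, the members were compared in pairs. On log2(CPM + 4), centred on the mean of each of the 10 groups of region and state, the 21 pairs of members had Pearson correlations from -0.24 (Fdft1 and Lss) to 0.54 (Hmgcs1 and Msmo1), with a median of 0.30 over 77 libraries. The genes outside the pathway lists most like the mean of the 7 were Tomm70a (r = 0.74), G3bp2 (0.73), Pafah1b2 (0.73), Pafah1b1 (0.72), Grsf1 (0.72), Chm (0.72), Mtpn (0.72) and Gmfb (0.72). Over all genes the median of this correlation was -0.015 and its 95th percentile 0.51. Within the pathway the closest were Cyp51 (0.67) and Sc5d (0.64), each an enzyme of synthesis. The genes of a library share its depth and base composition, and the 8 outside genes have 37.0% to 48.6% GC, below the median of 49.9% of all genes. These correlations are a description.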

How the data were processed

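The study made 80 libraries of polyA RNA from 5 regions, and the count table holds 77. The authors aligned single-end reads to mm10 with HISAT2 and counted them per gene with featureCounts; versions and the strand setting are not stated. The deposited counts are raw read counts per gene, and the deposited log2 values equal log2(count over a median-of-ratios size factor + 4) to within 5e-05. Counts were used here. In the labels 3 virgin samples have no column. The study's methods report that 3 outliers, of hippocampus, cerebellum and amygdala, were taken out after a principal component analysis. The 13016 genes with 5 CPM or more in 8 or more libraries were tested with edgeR 4.0.16 (TMM, robust quasi-likelihood) in R 4.3.3, and p-values were adjusted by Benjamini-Hochberg over all of them, with 0.05 as threshold. Gene length, GC content and positions come from GENCODE M21, with length and GC for 97% of tested genes.

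Each region was fitted alone for state, in pairs for interactions, and in 1 fit for regions. By animal number in the labels the same animals gave all regions. As a check, expression of the same animal in 2 regions, centred by group, had median correlations from -0.013 to 0.10 over pairs of regions, and different animals from -0.019 to 0.0065, a weak pairing; the animal was a block in an alternative.

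Other alternatives were limma-voom and limma-trend (limma 3.58.1), DESeq2 1.42.0, other scalings, no filter, 1 fit of all groups, weights for library quality, the digits of the animal number as covariate, an offset for length and GC, and leaving out each library. The fits were tested on simulated data. Summaries used Python 3.11.15, numpy 2.4.6, pandas 2.3.3 and matplotlib 3.10.9.

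Named genes are the 7 members, other pathway genes that pass in a region, Srebf2 and Insig2, and the 8 genes outside the lists most like the members. Genes named beside these, such as Sc5d and Cyp51 and the changed markers, were chosen after their values were seen. Values of a few listed genes are not reported here. The members and lists were chosen with earlier results of these data known.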

Additional observations from a re-analysis of the deposited data

Results flagged for a closer look

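Among 70 groups of 1 gene in 1 region and state, 6 held a library far from the others by Dixon's ratio at the 95% level, and chance marks about 1 in 20 groups. In virgin cerebellum, animal 4488 had the highest level of both Hmgcs1 (138 CPM, next 109.6) and Idi1 (12.7 CPM, next 10.1). Fdft1 in the neocortex of primiparous 427 was at 115 CPM, with the next at 88.3. Sqle in the neocortex of virgin 4487 was lowest at 50.9 CPM, with the next at 55.6. Lss in the hippocampus of primiparous 415 was at 16.6 CPM, with the next at 15.1. Msmo1 in the hypothalamus of virgin 409 was lowest at 84.2 CPM, with the next at 99.2; Msmo1 passed without this animal too.

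The difference between primiparous and virgin animals departed between regions in 8 tests of the interaction. Hypothalamus minus cerebellum was -0.28 for Hmgcs1, -0.52 for Idi1 and -0.44 for Msmo1 on the log2 scale. Hypothalamus minus hippocampus was -0.32, -0.53 and -0.40 for the same genes. Hypothalamus minus amygdala was -0.64 for Idi1 and -0.29 for Msmo1. The digits of the animal number were not tested as a covariate in these fits.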

How the results depend on the processing

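Of 102 counts of members under alternatives other than leaving out a library, 95 were within 1.5 times the count reported. In hypothalamus the digits covariate and the offset for length and GC each left 0 of 7 members (3 without them). Hypothalamus minus cerebellum went to 1 with block and offset, minus hippocampus to 0 with both, and minus amygdala to 1 with the block and 0 with both; hippocampus against neocortex went to 6 with the offset. The animal block changed no other call. The causes were not tested. Over 10 alternatives in hypothalamus the adjusted p ranged from 0.000865 to 0.833 for Hmgcs1, 0.00112 to 0.314 for Idi1 and 5.98e-05 to 0.193 for Msmo1; 1 fit of all groups ended the call of Hmgcs1 (adjusted p = 0.0983). For Msmo1, hypothalamus minus amygdala, it ranged from 0.0235 to 0.605, and minus cerebellum from 0.00822 to 0.0395. Leaving out each library gave 2 to 4 members; Idi1 and Msmo1 passed in all 16.

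Genes called over all in hypothalamus (2939) became 3 with the covariate, 351 with the offset and 4900 with quality weights; in cerebellum (92) 505 with DESeq2, 0 with the covariate, 407 with the offset and 618 with weights; in hippocampus (0) 13 with DESeq2, 2 with weights and 6 in 1 fit; in neocortex (0) 6 in 1 fit; in amygdala (0) 106 with DESeq2, 14 with the covariate and 142 in 1 fit.

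Of 714 values of a member under such an alternative, 661 kept direction and side of the threshold and 30 changed sign, of which 1 had passed, Hmgcs1 in hypothalamus (0.0205 with the offset). In hypothalamus, Fdft1 became -0.0377 with the covariate, -0.0350 with the offset and -0.0144 with weights, and among other named genes Srebf2 became -0.0540 with the offset. In cerebellum, Fdft1 became 0.0032 with limma-voom and 0.0102 with the offset, and Sqle -0.0301 with the covariate. In hippocampus, Msmo1 became -0.0047 with the covariate. In neocortex, Hmgcs1 became 0.0654 and Sqle 0.0170 with the offset, and Lss -0.0134 with limma-voom, -0.0054 with limma-trend and -0.0330 with the covariate. In amygdala, Hmgcs1 became -0.0054 with the offset, Fdft1 0.0736 with the covariate, and Msmo1 -0.0005 with limma-trend, -0.0489 with the offset and -0.0138 with weights. With block and offset, hypothalamus minus cerebellum became -0.0418 for Fdft1 (-0.0055 with limma-voom) and 0.0335 for Insig1, minus neocortex 0.0050 for Insig1, and minus amygdala 0.0143 for Hmgcs1, -0.0473 for Fdft1 and 0.0011 for Insig1. Between regions the offset gave Idi1 0.0327 in cerebellum against hippocampus, 0.0207 against neocortex and -0.0120 in hippocampus against neocortex, Lss -0.1405 there (adjusted p = 0.0285) and Insig1 -0.0123 in neocortex against amygdala. The offset also moved the median of all genes to -0.12 in hypothalamus against cerebellum, and to 0.12, 0.094 and 0.13 in cerebellum against hippocampus, neocortex and amygdala.

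Leaving out each library changed signs of Fdft1 in hypothalamus (-0.0268 to 0.0235) and cerebellum (-0.0500 to 0.0297), Sqle in cerebellum (-0.0151 to 0.0530), neocortex (-0.0414 to 0.0044) and amygdala (-0.0077 to 0.0591), Lss in neocortex (-0.0630 to 0.1012) and Msmo1 in amygdala (-0.0247 to 0.0305), none of them past the threshold. Idi1 and Lss have the lowest counts of the members, down to 74 and 129, and the part of depth in their values was not tested.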
